A study of Mus musculus with 9 samples.

Results

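The nuclear-encoded genes of the mitochondrial respiratory chain and of ATP synthase were followed across 9 arrays of mouse embryos at embryonic day 16.5. The 9 arrays held 3 samples of the condyle of the temporomandibular joint (the jaw joint), 3 of its fossa (the socket) and 3 of the whole body. Every sample is described as laser-captured fresh frozen tissue of embryos with no genotype, strain or drug given, and the design text calls the samples biological triplicates without saying which embryo each came from. The p-values therefore measure the spread between these samples, which may be partly technical.

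Members were all probe sets with 1 gene symbol that starts with Ndufa, Ndufb, Ndufc, Ndufs, Ndufv, Uqcr, Sdh, Atp5 or Cox4, Cox5, Cox6, Cox7 and Cox8. These were 185 of the 34945 probe sets with 1 symbol, and they stood for 94 of 18193 genes. Of these genes, 82 encode subunits or tissue isoforms of the 5 complexes, with 36 in complex I, 4 in complex II, 8 in complex III, 17 in complex IV and 17 in complex V. The complex was taken from the letters of the symbol, so Ndufa4 and its paralogue Ndufa4l2 count in complex I throughout. The other 12 (Ndufaf1 to Ndufaf8 and Sdhaf1 to Sdhaf4) share the letters but encode assembly factors, which build complexes I and II and are not part of them. Ndufs6 and Cox7b were not analysed here. At or under the background limit on all 9 arrays were 3 genes, Ndufb4, Cox7b2 and Cox8c. Other probe sets of Ndufb4 carry several symbols and were left out, so its low signal may belong to the probe set rather than the gene.

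Complex I (NADH dehydrogenase) and complex II (succinate dehydrogenase) pass electrons from fuel molecules to ubiquinone. Complex III (the cytochrome bc1 complex) hands them to cytochrome c, and complex IV (cytochrome c oxidase) hands them to oxygen. Complex V (ATP synthase) makes ATP from the proton gradient that complexes I, III and IV build, and several complex IV subunits exist as a general form and a heart and skeletal muscle form. Cartilage has few blood vessels, and its cells are known for a high share of glycolysis in their energy supply.

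Values are log2 of the deposited intensities, with 1 probe set per gene, and differences are log2 differences of group means with their standard error (SE) from limma. A gene was called when its adjusted p over all 18193 genes was under 0.05. The arrays were not fully aligned in their upper range, so counts are also given after quantile normalization, which forces all arrays to 1 distribution, and for single genes mainly where it ended a call. The share of probe sets above the background limit was 45.4 to 46.9% in condyle, 30.3 to 43.8% in fossa and 37.4 to 45.9% in whole body, and the 75th percentile of log2 intensity was 4.81 to 4.90 in condyle, 4.03 to 4.29 in fossa and 4.35 to 4.54 in whole body. A probe set for 18S ribosomal RNA had log2 intensities of 5.90 to 9.66 in condyle, 7.30 to 9.75 in fossa and 14.3 to 14.4 in whole body, a difference in the libraries whose part in the results below was not tested. Control probe sets for the 3′ end of Gapdh exceeded those for its 5′ end by 5.33 to 6.86 log2 units in condyle, 3.69 to 5.31 in fossa and 5.345 to 6.52 in whole body. For Actb this was 6.52 to 6.71, 4.79 to 6.60 and 5.74 to 6.57. Fossa 1 was lowest in both, and the part of this was not tested either. The mean log2 intensity of 7 cartilage marker genes was 9.46 ± 0.43 in condyle and 9.32 ± 0.72 in fossa, against 5.23 ± 0.31 in whole body (SD, n = 3 each). Markers of liver, red blood cells and heart muscle ran the other way, with 4.70 in condyle and 3.74 in fossa against 12.4 in whole body for the 6 liver genes, and 3.96 in condyle and 4.19 in fossa against 7.27 in whole body for the 8 heart genes. The 4 bone markers had means of 8.079 to 10.48 in condyle and 8.695 to 10.99 in fossa, against 6.915 to 7.026 in whole body. Of these genes, 1 was called higher in condyle and 2 in fossa. The 6 epithelial markers had 7.48 to 8.61 in condyle, against 5.92 to 5.99 in whole body, with 0 called. Fossa 1, 2 and 3 had 8.01, 4.27 and 7.59 for them, with 0 called higher and 1 lower. The part of bone and epithelial cells in the results below was not tested.

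More respiratory chain genes were called lower than higher in both joint tissues against whole body, and those higher in condyle included general forms of complex IV subunits. Of the 94 genes, 26 were lower in condyle than in whole body and 5 were higher, while 3.84% of all genes were lower and 9.34% were higher. After quantile normalization 28 were lower and 2 higher, beside 4.45% and 4.52% of all genes. The median difference of the members was -0.38 as deposited and -0.48 after quantile normalization, where the median over all genes was -0.03 and 0.00.

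Of the members, 52 were lower in fossa than in whole body and 2 were higher, beside 15.6% and 3.99% of all genes. After quantile normalization 24 were lower and 3 higher, beside 8.98% and 8.09% of all genes. The median difference of the members was -0.78 as deposited and -0.30 after quantile normalization, beside -0.11 and 0.00 for all genes. Both comparisons use the same 3 whole body arrays. In tissue samples of this kind, fewer cells rich in mitochondria and less RNA per cell cannot be told apart.

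The moderated F test of limma, which asks for any difference among the 3 groups, called 56 of the 94 members as deposited, beside 28.1% of all genes. After quantile normalization it called 30, beside 17.3% of all genes. In the deposited values, the means of 61 members ran from whole body, the highest, through condyle to fossa, the lowest. After quantile normalization 15 members had that order, and 44 had fossa in the middle and condyle lowest. These orders were not counted over all genes. Of all 18193 genes, called or not, 12013 had a higher mean in condyle than in fossa as deposited. After quantile normalization 8828 did.

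**Figure D1:**
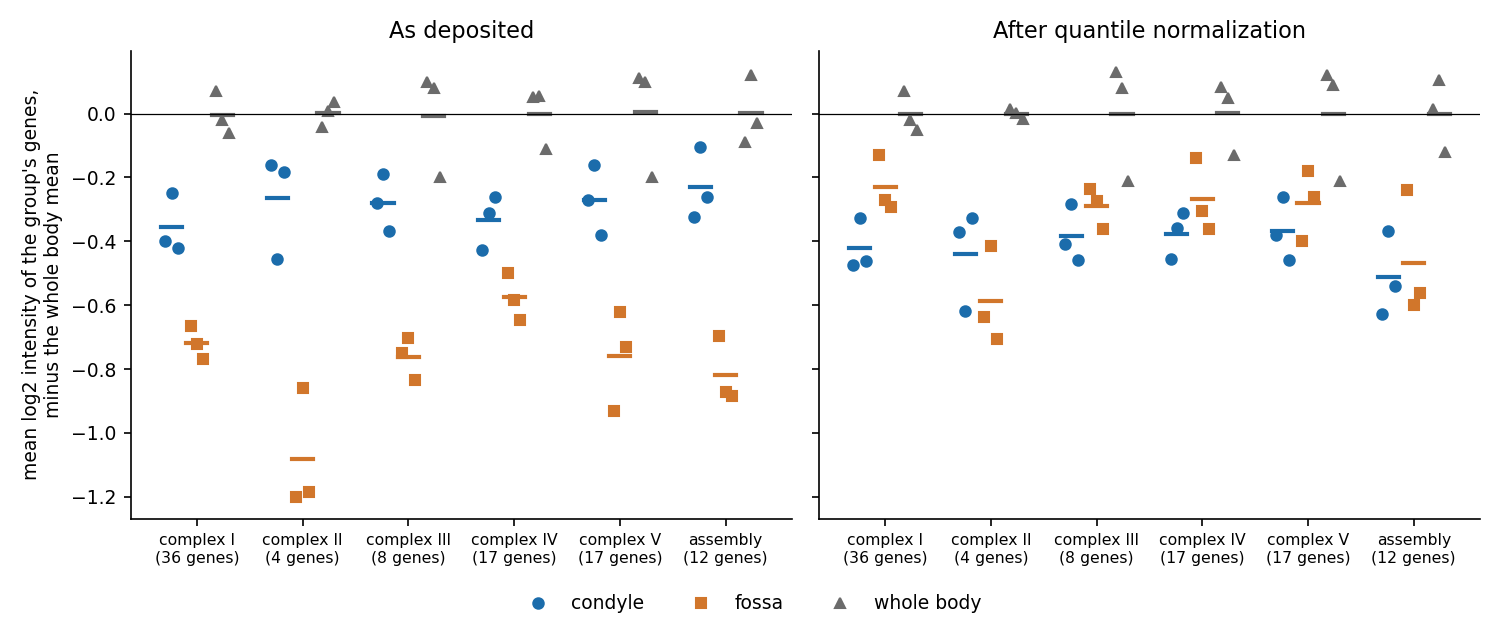
Mean log2 intensity of the member genes of each complex on each array, minus the mean of the 3 whole body arrays; points are arrays and bars are group means. The means of condyle and fossa lie below that of whole body in every complex in both panels, and the mean of fossa is below that of condyle in every complex as deposited (left) and in complex II alone after quantile normalization (right).

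The call "lower" held as deposited, after quantile normalization and without any 1 of the 9 arrays for 15 members in condyle against whole body. These were Ndufa4, Ndufab1, Ndufb2, Ndufb8, Ndufb9, Ndufb11 and Ndufs4 of complex I, Sdhb of complex II, Cox6c, Cox7a2 and Cox8b of complex IV, Atp5c1, Atp5k and Atp5mpl of complex V, and the assembly factor Sdhaf4. In fossa against whole body the same demand left 23 members, among them Sdhb and Sdhd, Uqcrh, Cox6a2, Cox7a2 and Cox8b, and Atp5c1, Atp5k, Atp5mpl and Atp5pb. In the direction "higher" it left 1 gene in condyle, Cox6a1, and 1 in fossa, Ndufaf3. The share of all genes that met the same demand was not counted, so these numbers do not set the members apart from other genes. Single arrays bore on the count in condyle: the 26 genes lower became 17 without condyle 1, 17 without whole body 1 and 16 without whole body 2. The 5 genes higher in condyle (Ndufs3, Uqcrc1, Cox6a1, Cox6b1 and Cox8a) became 2 without condyle 1 and 3 without condyle 2, whole body 1, whole body 2 or whole body 3.

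Nuclear genes of the respiratory chain are known to share promoter motifs of the factors NRF1, the ETS family (such as GABP) and YY1. The promoters of 7 members that moved are shown to let their start regions be compared: 3 with a motif in genes lower in joint tissue (Sdhb, Atp5k and Uqcrh), 2 without any in genes lower by large amounts (Cox7a2 and Cox8b) and 2 of genes that were higher (Cox6a1 and Cox6b1). They were chosen after their values were seen. Each line is the 120 bases before the transcription start, 5′ to 3′ on the gene's strand, from RefSeq with build GRCm38.p6, and capitals mark a motif on either strand.
Sdhb, chr4:140961151-140961270, plus strand: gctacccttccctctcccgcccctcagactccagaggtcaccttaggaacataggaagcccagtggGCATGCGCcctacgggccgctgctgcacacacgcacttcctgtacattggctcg
Atp5k, chr5:108434400-108434519, minus strand: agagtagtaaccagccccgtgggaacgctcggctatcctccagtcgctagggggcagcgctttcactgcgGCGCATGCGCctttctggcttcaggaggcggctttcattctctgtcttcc
Uqcrh, chr4:116075071-116075190, minus strand: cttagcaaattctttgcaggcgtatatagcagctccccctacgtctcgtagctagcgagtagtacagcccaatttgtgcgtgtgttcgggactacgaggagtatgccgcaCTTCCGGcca
Cox7a2, chr9:79759854-79759973, minus strand: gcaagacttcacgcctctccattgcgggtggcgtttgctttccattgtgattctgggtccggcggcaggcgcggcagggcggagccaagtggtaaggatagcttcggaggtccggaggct
Cox8b, chr7:140900447-140900566, minus strand: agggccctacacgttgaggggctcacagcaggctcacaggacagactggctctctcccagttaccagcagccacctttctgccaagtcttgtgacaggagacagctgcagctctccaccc
Cox6a1, chr5:115348959-115349078, minus strand: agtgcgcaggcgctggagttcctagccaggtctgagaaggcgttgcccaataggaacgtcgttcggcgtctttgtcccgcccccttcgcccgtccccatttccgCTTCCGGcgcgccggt
Cox6b1, chr7:30626115-30626234, minus strand: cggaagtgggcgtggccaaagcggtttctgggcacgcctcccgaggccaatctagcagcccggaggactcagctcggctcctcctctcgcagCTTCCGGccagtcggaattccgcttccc

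The letters searched were GCGCATGC for NRF1, CCGGAAG for ETS factors and AAGATGGCG for YY1, on both strands, over the 250 bases before and 50 after each start. NRF1's letters overlap their own reverse complement, so the run in Atp5k holds 1 match on each strand. Promoters were found for 78 of the 94 members, 83 in all. An NRF1 match was in 13.3% of them, against 3.51% of promoters of protein-coding genes and 2.71% of all 32851 promoters. For an ETS match it was 26.5%, against 11.6% and 8.86%, and for a YY1 match 8.43%, against 1.83% and 1.4%. At least 1 of these motifs was in 39.8% of member promoters, against 12.1% of all promoters and 15.7% of those of protein-coding genes. By complex, any match was in 10 of 32 genes of complex I, 2 of 3 of complex II, 3 of 5 of complex III, 3 of 12 of complex IV, 8 of 15 of complex V and 7 of 11 assembly factors. Genes with a match stood on both sides. Cox6a1 and Cox6b1, which were higher in condyle, hold an ETS match, as does Uqcrh, which was lower. Within the bases searched but outside the 120 shown, Sdhb and Atp5k, which were lower, also hold an ETS match. Cox6a1 holds NRF1 matches outside the bases shown, so NRF1 matches were not limited to the lower genes. A match is a description of the letters, not a bound site.

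In complex I, 13 of 36 genes were lower in condyle than in whole body and 1 was higher, and 20 were lower in fossa and 0 higher. After quantile normalization these were 15 and 0 in condyle and 9 and 0 in fossa. Of all genes, 3.84% were lower and 9.34% higher in condyle as deposited, and 15.6% and 3.99% in fossa, and after quantile normalization 4.45% and 4.52% in condyle and 8.98% and 8.09% in fossa. The largest difference was that of Ndufa4, first described in complex I and later assigned to complex IV. Its log2 intensity was 6.65, 6.91 and 7.04 in condyle and 5.96, 6.24 and 6.59 in fossa, against 8.35, 8.69 and 8.35 in whole body. All joint arrays lay below all whole body arrays, by more than a log2 unit. The difference was -1.60 ± 0.19 in condyle (SE, adjusted p = 0.00312) and -2.20 ± 0.19 in fossa (adjusted p = 0.000571), which is 3.03-fold and 4.6-fold lower than in whole body.

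Ndufs4, an accessory subunit of the arm that binds NADH, whose loss causes Leigh-like disease in mice, had 7.77, 7.45 and 7.51 in condyle and 7.22, 7.10 and 7.05 in fossa, against 8.61, 9.16 and 8.85 in whole body. The groups did not overlap, and the log2 differences were -1.30 ± 0.15 in condyle (adjusted p = 0.00311) and -1.75 ± 0.15 in fossa (adjusted p = 0.000625). Another probe set of Ndufs4, above background on all 9 arrays, gave -0.78 in condyle and -0.56 in fossa, neither called. Ndufab1, which is also the mitochondrial acyl carrier protein, had 9.30, 9.31 and 9.31 in condyle and 8.83, 8.48 and 8.14 in fossa, against 10.3, 10.4 and 10.4 in whole body. Its differences were -1.07 ± 0.16 in condyle (adjusted p = 0.00702) and -1.89 ± 0.16 in fossa (adjusted p = 0.000518). For Ndufb11, a membrane arm subunit, 3 probe sets above background on all arrays gave differences of -0.99, -1.33 and -0.99 in condyle and of -1.25, -1.93 and -1.34 in fossa, all lower and all called when every probe set was fitted.

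The core subunits include those that carry the flavin and iron-sulfur centres. Of the 6 measured, Ndufs8 and Ndufv2 were lower in condyle as deposited (-1.14 ± 0.23, adjusted p = 0.0212, and -0.73 ± 0.17, adjusted p = 0.0369), and Ndufs3 was higher. Ndufs3, of the ubiquinone-binding module, had 8.53, 8.64 and 8.40 in condyle and 7.63, 7.51 and 7.73 in fossa, against 7.98, 8.16 and 8.15 in whole body. The 3 groups were in separate ranges, with condyle highest and fossa lowest, and the differences were 0.43 ± 0.10 in condyle (adjusted p = 0.0297) and -0.47 ± 0.10 in fossa (adjusted p = 0.015). After quantile normalization neither was called (0.24, adjusted p = 0.174, and 0.01, adjusted p = 0.948), nor was Ndufv2 in condyle (-0.68, adjusted p = 0.0819). Without single arrays these 3 calls in condyle were lost at adjusted p up to 0.0852 for Ndufs3 (without condyle 2), 0.0665 for Ndufs8 (without whole body 2) and 0.102 for Ndufv2 (without condyle 3), and that of Ndufs3 in fossa at 0.0503 (without whole body 2). Ndufv1, which binds NADH and the flavin, and Ndufs1, which holds iron-sulfur clusters, passed in neither comparison, with differences of 0.06 and -0.35 in condyle and of -0.32 and -0.90 in fossa. Ndufa4l2, a paralogue of Ndufa4 known to be induced by low oxygen, had 3.98, 5.68 and 3.50 in condyle and 4.66, 2.98 and 3.77 in fossa, against 3.47, 2.09 and 3.09 in whole body, where 1 array was above background. Its difference in condyle was the largest positive one in the complex, at least 2.11-fold, with adjusted p = 0.207.

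Complex II oxidises succinate through Sdha, the flavoprotein, and Sdhb, the iron-sulfur subunit, and is held in the membrane by Sdhc and Sdhd. Sdhb had 10.2, 10.3 and 10.3 in condyle and 9.70, 9.64 and 9.72 in fossa, against 11.4, 11.5 and 11.1 in whole body. The ranges were apart, and the differences were -1.05 ± 0.12 in condyle (adjusted p = 0.00254) and -1.64 ± 0.12 in fossa (adjusted p = 0.000257). Sdha, its partner, had 9.62, 9.17 and 9.40 in condyle and 9.01, 8.58 and 8.56 in fossa, against 9.23, 8.99 and 9.38 in whole body. These ranges overlapped, and neither difference passed (0.20 ± 0.18, adjusted p = 0.469, and -0.49 ± 0.18, adjusted p = 0.101).

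Sdhd was lower in fossa by 1.52 ± 0.22 (log2, adjusted p = 0.00464), with 7.39, 7.79 and 7.14 against 8.93, 9.22 and 8.73 in whole body, and the difference in condyle was -0.84 (adjusted p = 0.0527). Its other probe set gave 0.06 in condyle and -1.08 in fossa, neither called. Sdhc differed by 0.63 in condyle (adjusted p = 0.299) and by -0.68 in fossa (adjusted p = 0.245). Among the 4 assembly factors of complex II, Sdhaf4, which helps to join Sdha with Sdhb, was lower in both, by 1.06 ± 0.17 in condyle (adjusted p = 0.00905) and by 1.68 ± 0.17 in fossa (adjusted p = 0.00109).

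In complex III, 2 of 8 genes were lower in condyle and 1 was higher, beside 3.84% and 9.34% of all genes. In fossa 5 were lower and 0 higher, beside 15.6% and 3.99%. After quantile normalization 2 were lower and 0 higher in condyle, beside 4.45% and 4.52% of all genes. In fossa 1 was then lower and 0 higher, beside 8.98% and 8.09%. Uqcrh, the hinge protein that binds cytochrome c1, had 8.65, 8.52 and 8.65 in condyle and 7.37, 8.17 and 7.88 in fossa, against 9.51, 9.53 and 9.35 in whole body. No joint array reached the whole body range, and the differences were -0.85 ± 0.19 in condyle (adjusted p = 0.0284) and -1.65 ± 0.19 in fossa (adjusted p = 0.00169). Its other probe set, above background on all 9 arrays, gave -0.68 in condyle and -0.98 in fossa, neither called. The Rieske iron-sulfur protein Uqcrfs1 was lower by 0.79 ± 0.18 in condyle (adjusted p = 0.0291) and by 1.18 ± 0.18 in fossa (adjusted p = 0.00473), and after quantile normalization its difference in fossa was -0.61 (adjusted p = 0.0559). In condyle both calls were lost when single arrays were left out, with adjusted p up to 0.0842 for Uqcrh (without whole body 2) and up to 0.0888 for Uqcrfs1 (without whole body 2).

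Uqcrc1, a core protein of the same complex, had 6.59, 7.37 and 6.87 in condyle and 5.70, 6.19 and 6.48 in fossa, against 5.60, 5.55 and 5.57 in whole body. It was 2.58-fold higher in condyle, a difference of 1.37 ± 0.25 (adjusted p = 0.0138), which became 0.92 after quantile normalization (adjusted p = 0.0732). The other core protein, Uqcrc2, had differences of -0.39 in condyle and -0.51 in fossa, neither called. Uqcrq, a small subunit near the ubiquinone site, was lower in fossa by 1.29 ± 0.22 (log2, adjusted p = 0.00848), and after quantile normalization the difference was -0.71 (adjusted p = 0.0653). Its 3 further probe sets were at background on all arrays.

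Complex IV held the largest decrease and, in condyle, most of the increases. Of its 17 genes, 4 were lower and 3 higher in condyle, beside 3.84% and 9.34% of all genes. In fossa 8 were lower and 1 higher, beside 15.6% and 3.99% of all genes. After quantile normalization 3 were lower and 2 higher in condyle, beside 4.45% and 4.52% of all genes, and 5 were lower and 2 higher in fossa, beside 8.98% and 8.09%. Of those called in fossa as deposited, Cox8c (higher) and Cox4i2 (lower) had signals at or near the background limit in both groups. Cox7a2, the general form of subunit 7a, had 12.8, 12.9 and 12.9 in condyle and 12.8, 12.7 and 12.8 in fossa, against 14.1, 14.2 and 14.1 in whole body. The spread within each group was under 0.1 (SD 0.04, 0.06 and 0.08), and the gap to whole body was over 1.2 log2 units, the smallest adjusted p of any member in either comparison. It was lower by 1.29 ± 0.07 in condyle (adjusted p = 8.97e-05) and by 1.37 ± 0.07 in fossa (adjusted p = 5.07e-05), about 2.44-fold and 2.59-fold. A separate probe set of Cox7a2 gave -1.67 and -1.97, both called.

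Cox6c, which has a single form, was lower by 0.81 ± 0.12 in condyle (adjusted p = 0.00809) and by 1.01 ± 0.12 in fossa (adjusted p = 0.00227). Cox5a, a subunit of the matrix side, was lower by 0.44 ± 0.11 in condyle (adjusted p = 0.0401) and by 0.79 ± 0.11 in fossa (adjusted p = 0.00355), and after quantile normalization neither call held (adjusted p = 0.0793 and 0.0862). In condyle its call was lost without any 1 of 7 arrays, with adjusted p up to 0.119 (without condyle 1). Cox4i1, the general form of subunit 4, was lower in fossa by 0.82 ± 0.18 (adjusted p = 0.0204), and its difference in condyle was -0.66 (adjusted p = 0.0562). In fossa it was -0.25 after quantile normalization (adjusted p = 0.354), and as deposited the call was lost without fossa 1, fossa 3, whole body 1 or whole body 2 (adjusted p up to 0.0635). Cox5b differed by 0.17 in condyle and by -0.08 in fossa, with overlapping arrays.

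The general forms of subunits 6a, 6b and 8 were called higher in condyle as deposited. Cox6a1 had 14.8, 14.6 and 14.8 in condyle and 14.5, 14.4 and 14.5 in fossa, against 14.3, 14.3 and 14.3 in whole body. Every joint array lay above every whole body array. The difference was 0.41 ± 0.07 in condyle (adjusted p = 0.0104) and 0.17 ± 0.07 in fossa (adjusted p = 0.118), and after quantile normalization it was 0.52 in both, called in both (adjusted p = 0.009 and 0.00559). Cox6b1 was higher in condyle by 0.43 ± 0.10 (adjusted p = 0.0365), with 14.1, 14.1 and 14.1 against 13.8, 13.7 and 13.6 in whole body. The call was lost without any 1 of 7 arrays (adjusted p up to 0.106, without condyle 3). After quantile normalization it was higher in condyle by 0.52 (adjusted p = 0.0365) and in fossa by 0.67 (adjusted p = 0.0102).

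Cox8a, the general form of subunit 8, had 8.48, 8.00 and 8.03 in condyle and 7.15, 7.49 and 7.63 in fossa, against 7.01, 7.07 and 6.15 in whole body. It was 2.69-fold higher in condyle, a difference of 1.43 ± 0.28 (adjusted p = 0.0181). The call was lost without condyle 1 (adjusted p = 0.0586) and after quantile normalization (1.13, adjusted p = 0.0691). In fossa the difference was 0.68 (adjusted p = 0.136). With each array centred on its 75th percentile, Cox6a1 and Cox6b1 were level with whole body in condyle (0.01 and 0.03), so their direction rests on the scaling.

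Of the heart and skeletal muscle forms, Cox8b was lower in both joint tissues, Cox6a2 was lower in fossa, and Cox7a1 was called in neither. Cox8b had 3.07, 3.11 and 4.38 in condyle and 3.43, 3.30 and 3.37 in fossa, against 6.30, 6.67 and 6.12 in whole body. The joint arrays sat close to the background limit, with condyle 3 the highest, and whole body was far above it. It was 7.2-fold lower in condyle (-2.85 ± 0.35, adjusted p = 0.00361) and at least 7.84-fold lower in fossa (-3.00 ± 0.35, adjusted p = 0.00179), the largest differences of any member. Cox6a2 had 3.90, 4.36 and 4.78 in condyle and 3.22, 4.08 and 3.46 in fossa, against 5.18, 5.23 and 4.81 in whole body, and was at least 2.61-fold lower in fossa (adjusted p = 0.0133), with adjusted p = 0.157 in condyle.

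Cox7a1 had 3.77, 3.46 and 3.81 in condyle and 5.29, 3.32 and 2.94 in fossa, against 4.79, 4.72 and 4.77 in whole body. Only fossa 1 reached above the whole body arrays. Neither difference was called with all arrays (-1.08, adjusted p = 0.25, and -0.91, adjusted p = 0.301), and without fossa 1 both were (-1.08, adjusted p = 0.00592, and -1.63, adjusted p = 0.00215). The 8 heart markers had mean log2 intensities of 3.51 to 4.35 in condyle and 4.06 to 4.39 in fossa, against 6.93 to 7.61 in whole body. The 9 skeletal muscle markers had 5.32 to 7.61 in condyle and 6.03 to 7.93 in fossa, against 8.16 to 8.37 in whole body, and condyle 3 was the highest condyle array there too. The part of muscle cells in these differences was not tested. Cox4i2, Cox6b2, Cox7b2 and Cox8c, known from lung or testis, were at or near background, and no fold is drawn from them.

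**Figure D2:**
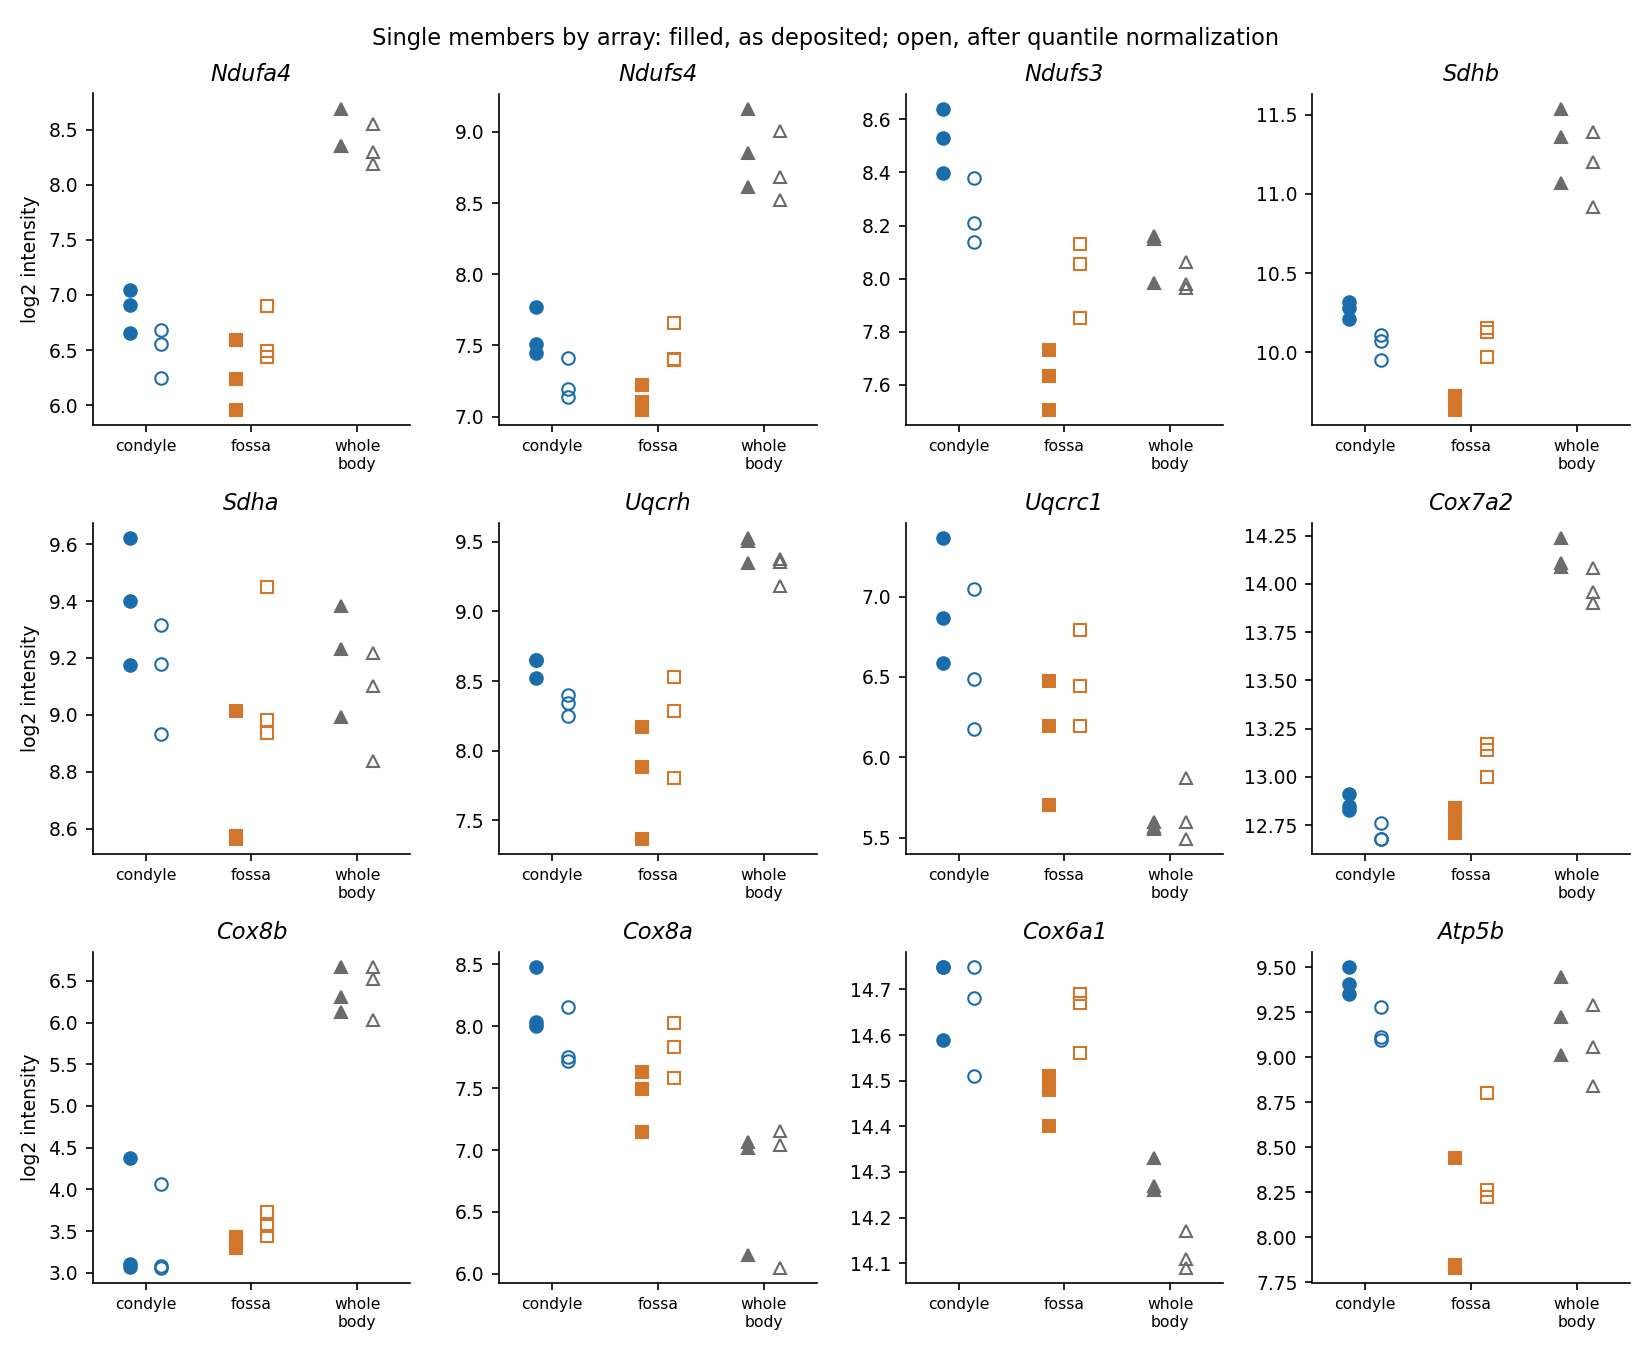
Log2 intensity of 12 members on each array (filled, as deposited; open, after quantile normalization), with condyle, fossa and whole body from left to right and a separate vertical axis for each gene. Cox7a2, Sdhb, Ndufs4, Ndufa4 and Cox8b lie below whole body in both joint tissues in both sets of values, and Cox6a1 lies above it.

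In complex V, 5 of 17 genes were lower in condyle and 0 higher, beside 3.84% and 9.34% of all genes. In fossa 11 were lower and 0 higher, beside 15.6% and 3.99% of all genes. After quantile normalization 5 were lower in condyle and 4 in fossa, with 0 higher in either, beside 4.45% of all genes lower in condyle and 8.98% in fossa. Of the catalytic head, Atp5b (beta), which carries the catalytic sites, had 9.41, 9.35 and 9.50 in condyle and 7.84, 8.44 and 7.83 in fossa, against 9.44, 9.22 and 9.01 in whole body. Condyle overlapped whole body (0.19 ± 0.19, adjusted p = 0.494), and fossa lay below both (-1.19 ± 0.19, adjusted p = 0.0058). After quantile normalization the difference in fossa was -0.63 (adjusted p = 0.0559). Atp5a1 (alpha) differed by 0.62 in condyle (adjusted p = 0.0635) and by -0.18 in fossa (adjusted p = 0.511), and of its 3 probe sets 1 gave the opposite sign in condyle (-0.73).

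Atp5c1 (gamma), the rotating shaft of the head, had 12.4, 12.4 and 12.4 in condyle and 11.6, 11.6 and 12.0 in fossa, against 13.4, 13.4 and 13.4 in whole body. It was lower by 0.98 ± 0.11 in condyle (adjusted p = 0.00296) and by 1.67 ± 0.11 in fossa (adjusted p = 0.000215). Its second probe set, above background on 8 of the 9 arrays, gave 0.84 in condyle and -0.33 in fossa, neither called, so the direction in condyle rests on 1 probe set. Atp5mpl, Atp5k and Atp5md encode small subunits of the membrane part. Atp5mpl fell by 1.16 ± 0.20 in condyle (adjusted p = 0.0109) and by 1.39 ± 0.20 in fossa (adjusted p = 0.00385), Atp5k (subunit e) by 0.90 ± 0.13 (adjusted p = 0.00702) and 1.12 ± 0.13 (adjusted p = 0.00201), and Atp5md by 1.01 ± 0.19 (adjusted p = 0.0169) and 0.99 ± 0.19 (adjusted p = 0.0128). After quantile normalization Atp5md was not called in fossa (-0.49, adjusted p = 0.113). Atp5l, subunit g of the same part, differed by -0.40 in condyle (adjusted p = 0.399) and by -0.68 in fossa (adjusted p = 0.168). Atp5g1, Atp5g2 and Atp5g3 encode the same subunit c of the rotor ring. Their differences in condyle were 0.70, 0.72 and -0.12, none called, and in fossa -0.08, -0.10 and -0.62, of which Atp5g3 was called (adjusted p = 0.037). After quantile normalization the differences in fossa were 0.44, 0.26 and -0.12, none called. Single arrays decided 2 of these calls, with adjusted p up to 0.0984 for Atp5g3 in fossa (without 8 of the 9 arrays in turn, the highest without whole body 1) and up to 0.0575 for Atp5md in condyle (without whole body 2).

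Among the 12 assembly factors, 1 was lower and 0 higher in condyle, beside 3.84% and 9.34% of all genes. In fossa 6 were lower and 1 higher, beside 15.6% and 3.99%. After quantile normalization 1 was lower and 0 higher in condyle, beside 4.45% and 4.52% of all genes. In fossa 3 were then lower and 1 higher, beside 8.98% and 8.09%. Ndufaf6, which helps to build the early part of complex I, had the largest difference, -1.87 in fossa (adjusted p = 0.0281), and its call was lost without any 1 fossa array (adjusted p up to 0.0742). Ndufaf5, which acts on the ubiquinone-binding module, differed by -1.20 in fossa (adjusted p = 0.00289). Ndufaf3, a partner of Ndufaf4 in the same module, was the 1 higher: it had 3.36, 3.19 and 3.12 in fossa, against 2.48, 2.33 and 2.32 in whole body. Only 2 fossa arrays and no whole body array were above the background limit, so the difference stands for at least 1.03-fold.

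Of the genes lower in both normalizations, those with more than 1 probe set above background on all arrays numbered 16 in condyle and 14 in fossa. All probe sets were lower for 16 of them in condyle and for 13 in fossa, the exception being a second probe set of Ndufb8. With dimmer probe sets included (above background on all arrays of at least 1 of the groups compared), 46 members had several, and all of a gene's probe sets had 1 sign for 36 of them in condyle and 41 in fossa. Ndufab1 was among the exceptions in both comparisons, and Ndufs4 in condyle.

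Between the joint tissues, the call depended on the normalization. As deposited, 19 members were higher in condyle than in fossa and 2 were lower, beside 16.8% and 2.13% of all genes, with a median of 0.43 against 0.21 for all genes. After quantile normalization 1 was higher and 4 lower, beside 3.76% and 2.72% of all genes, with a median of -0.14 against -0.01. The sign of the difference changed between the normalizations for 55 of the 94 members, against 6 for condyle and 17 for fossa when set against whole body. Sign changes were not counted over all genes. Of all 18193 genes, the difference between condyle and fossa was positive for 12013 as deposited and for 8828 after quantile normalization.

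Atp5b had the largest called difference between condyle and fossa in the deposited values, 1.38 ± 0.19 (adjusted p = 0.00445), with no overlap between the arrays given above. It was 0.73 after quantile normalization (adjusted p = 0.0645). Ndufs3 (0.90 ± 0.10, adjusted p = 0.00207) and Ndufa9, an accessory subunit at the ubiquinone site (0.87 ± 0.12, adjusted p = 0.00466), were also higher in condyle, with 0.23 and 0.22 after quantile normalization, neither called. Ndufa7 and Uqcr10, small subunits of complexes I and III, differed by 0.83 (adjusted p = 0.139) and 0.70 (adjusted p = 0.135). Sdhb was higher by 0.59 ± 0.12 (adjusted p = 0.0159; 0.0511 without condyle 3), and the difference was -0.04 after quantile normalization. Its partners Sdha (0.68 ± 0.18, adjusted p = 0.0373) and Sdhc (1.32 ± 0.37, adjusted p = 0.0479) were called as well, and both calls were lost without single arrays (adjusted p up to 0.109 and 0.126). Cox7a2, level in the deposited values (0.08, adjusted p = 0.439), was lower in condyle after quantile normalization by 0.39 on the log2 scale (adjusted p = 0.0198), where Ndufb8 and Ndufv3 were also lower. The 2 members lower in condyle as deposited were Ndufaf3 and Cox8c, the second at background on all arrays. Called in the same direction in both were Cox4i2 (higher) and Ndufaf3 (lower), whose signals were near the background limit. Without condyle 3 the 19 genes higher in condyle became 9, and without condyle 1 they became 11.

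**Figure D3:**
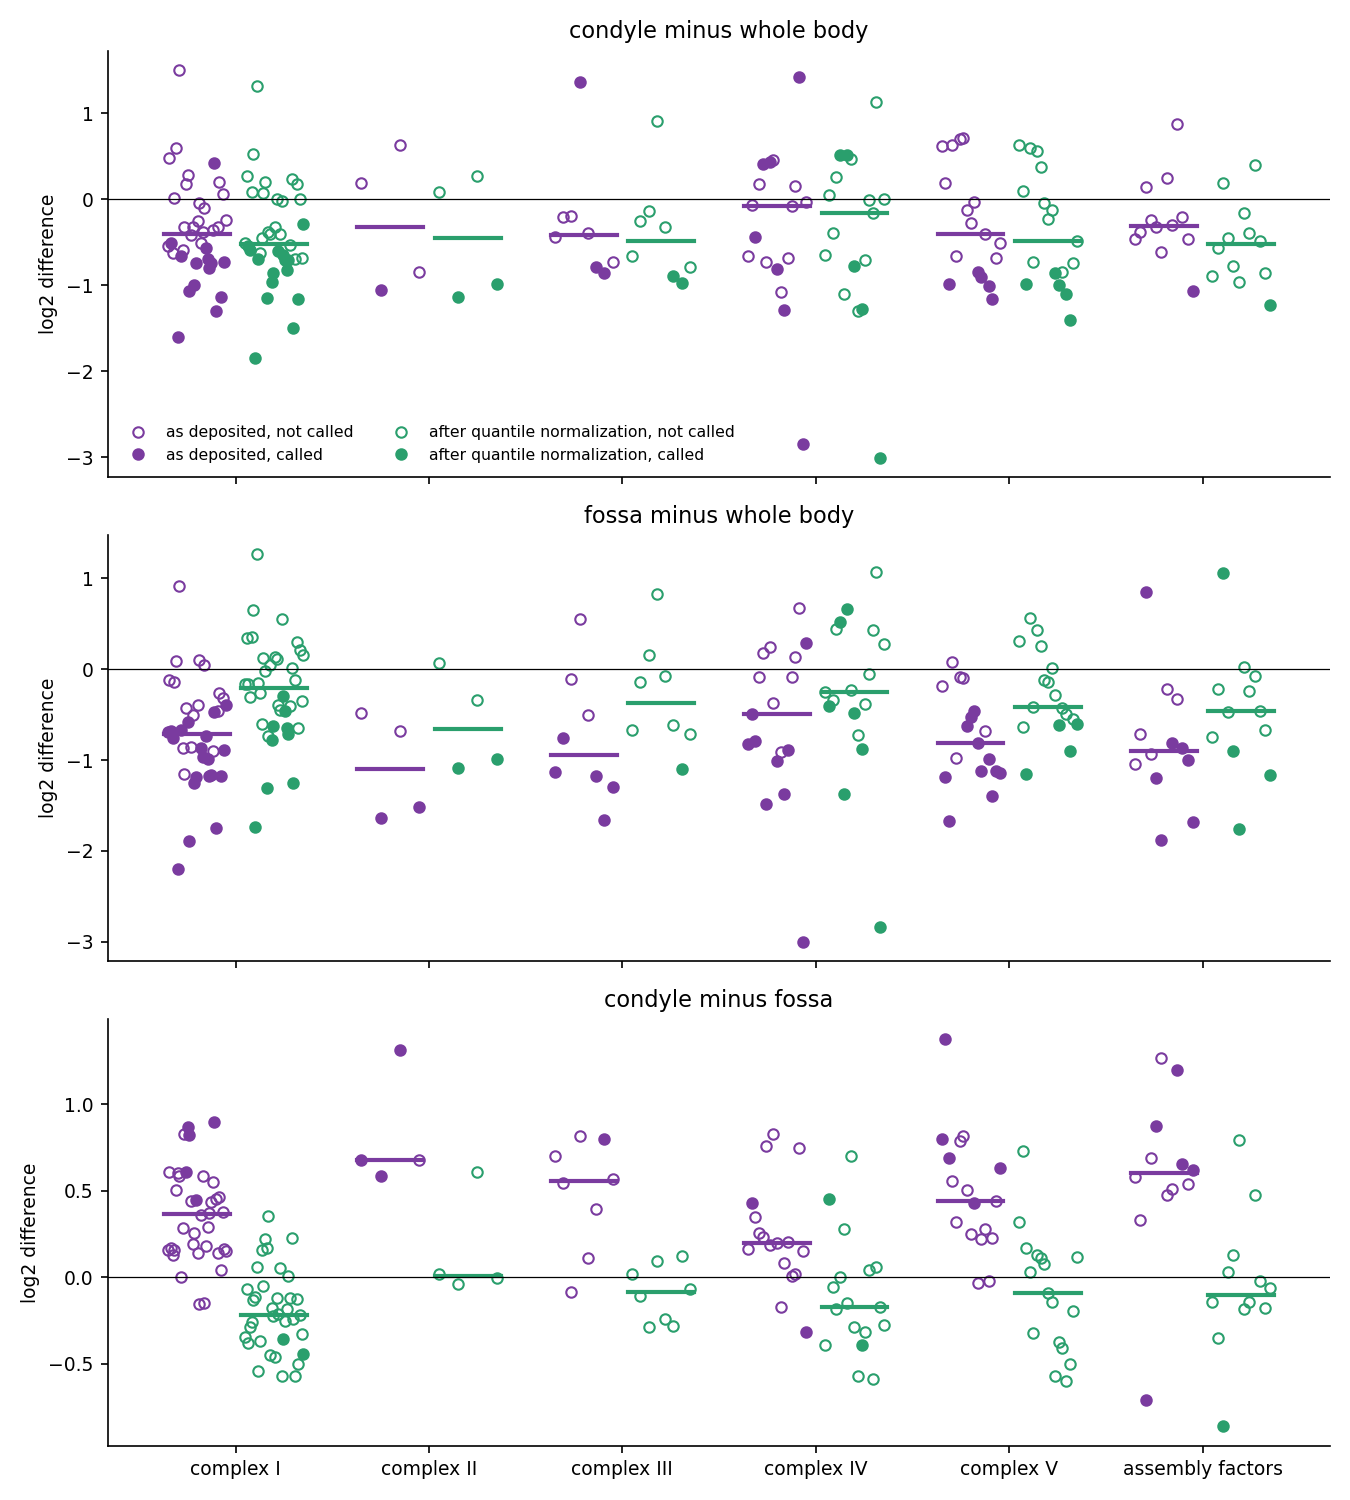
Log2 differences of all 94 members by complex in the 3 comparisons, as deposited (left of each pair) and after quantile normalization (right); filled points were called at an adjusted p under 0.05 and bars are medians. Medians are below 0 in every complex against whole body in both sets of values, and in the condyle minus fossa panel they lie above 0 as deposited and near or below 0 after quantile normalization.

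Lists of genes that work beside the chain can be read against the same shares of all genes: 9.34% higher and 3.84% lower in condyle as deposited (4.52% and 4.45% after quantile normalization), and 3.99% higher and 15.6% lower in fossa (8.09% and 8.98%). Cytochrome c (Cycs), which carries electrons from complex III to complex IV, had 13.4, 13.7 and 13.7 in condyle and 13.7, 13.2 and 12.9 in fossa, against 14.6, 14.6 and 14.4 in whole body, and was lower in both (-0.97 ± 0.20, adjusted p = 0.0209, and -1.32 ± 0.20, adjusted p = 0.00464). In a list of cytochrome c and 8 other carrier and channel genes, 2 were higher and 1 lower in condyle, and 0 higher and 4 lower in fossa, and after quantile normalization 2 were higher and 1 lower in condyle, and 1 higher and 2 lower in fossa. The phosphate carrier Slc25a3 and the ADP and ATP exchanger Slc25a5, which feed ATP synthase, were the 2 that were higher in condyle, by 0.46 (adjusted p = 0.0177) and 0.70 (adjusted p = 0.0319).

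The mitochondrial ribosome, which makes the subunits encoded in mitochondrial DNA, had 6 of 76 genes higher and 16 lower in condyle, and 0 higher and 37 lower in fossa. After quantile normalization 0 were higher and 20 lower in condyle, and 2 higher and 16 lower in fossa. The share higher in condyle as deposited, 6 of 76, was near that of all genes (9.34%). No gene symbol starting with mt- was among the 18193 genes, so the mitochondrially encoded subunits were not analysed here. Among 15 genes of the citrate cycle and pyruvate dehydrogenase, 1 was higher and 1 lower in condyle, and 1 higher and 4 lower in fossa. After quantile normalization 1 was higher and 2 lower in condyle, and 2 higher and 2 lower in fossa. These are small counts beside the shares of all genes (9.34% higher and 3.84% lower in condyle). Fh1 (fumarase), which acts on the product of complex II, was lower in both joint tissues (-0.87, adjusted p = 0.0372, and -1.45, adjusted p = 0.00427).

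Of 14 regulators of mitochondrial biogenesis, 3 were higher and 0 lower in condyle, and 3 higher and 2 lower in fossa, beside 9.34% and 3.84% of all genes in condyle and 3.99% and 15.6% in fossa. After quantile normalization 2 were higher and 0 lower in condyle, and 4 higher and 1 lower in fossa. Polrmt, the RNA polymerase of mitochondria, had 7.47, 7.79 and 7.88 in condyle and 7.46, 6.83 and 7.66 in fossa, against 4.18, 4.88 and 6.06 in whole body, and was higher in both (2.67 ± 0.46, adjusted p = 0.0122, and 2.27 ± 0.46, adjusted p = 0.0154). Pprc1, a coactivator of the PGC-1 family, was higher in condyle by 1.77 ± 0.20 (adjusted p = 0.00284) and in fossa by 0.72 ± 0.20 (adjusted p = 0.0478). Tfam, which packages mitochondrial DNA, was lower in fossa (-1.98 ± 0.31, adjusted p = 0.00554) and differed by -0.48 in condyle (adjusted p = 0.332).

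In glycolysis 7 of 12 genes were higher and 0 lower in condyle, beside 9.34% and 3.84% of all genes, and 5 were higher after quantile normalization, beside 4.52%. In fossa 2 were higher and 2 lower, and 4 higher and 0 lower after quantile normalization. Gapdh, Eno1 and Gpi1 were on the list of 15 but not among the genes analysed. Ldha, which makes lactate, had 12.2, 12.0 and 11.6 in condyle and 9.50, 10.2 and 10.2 in fossa, against 10.3, 10.1 and 9.88 in whole body. It was higher in condyle (1.83 ± 0.24, adjusted p = 0.00446), and fossa overlapped whole body (-0.15, adjusted p = 0.702). Aldoa (aldolase) was higher in condyle (2.20 ± 0.16, adjusted p = 0.000536) and in fossa (1.10 ± 0.16, adjusted p = 0.00471). No test compared the lists with each other.

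**Figure D4:**
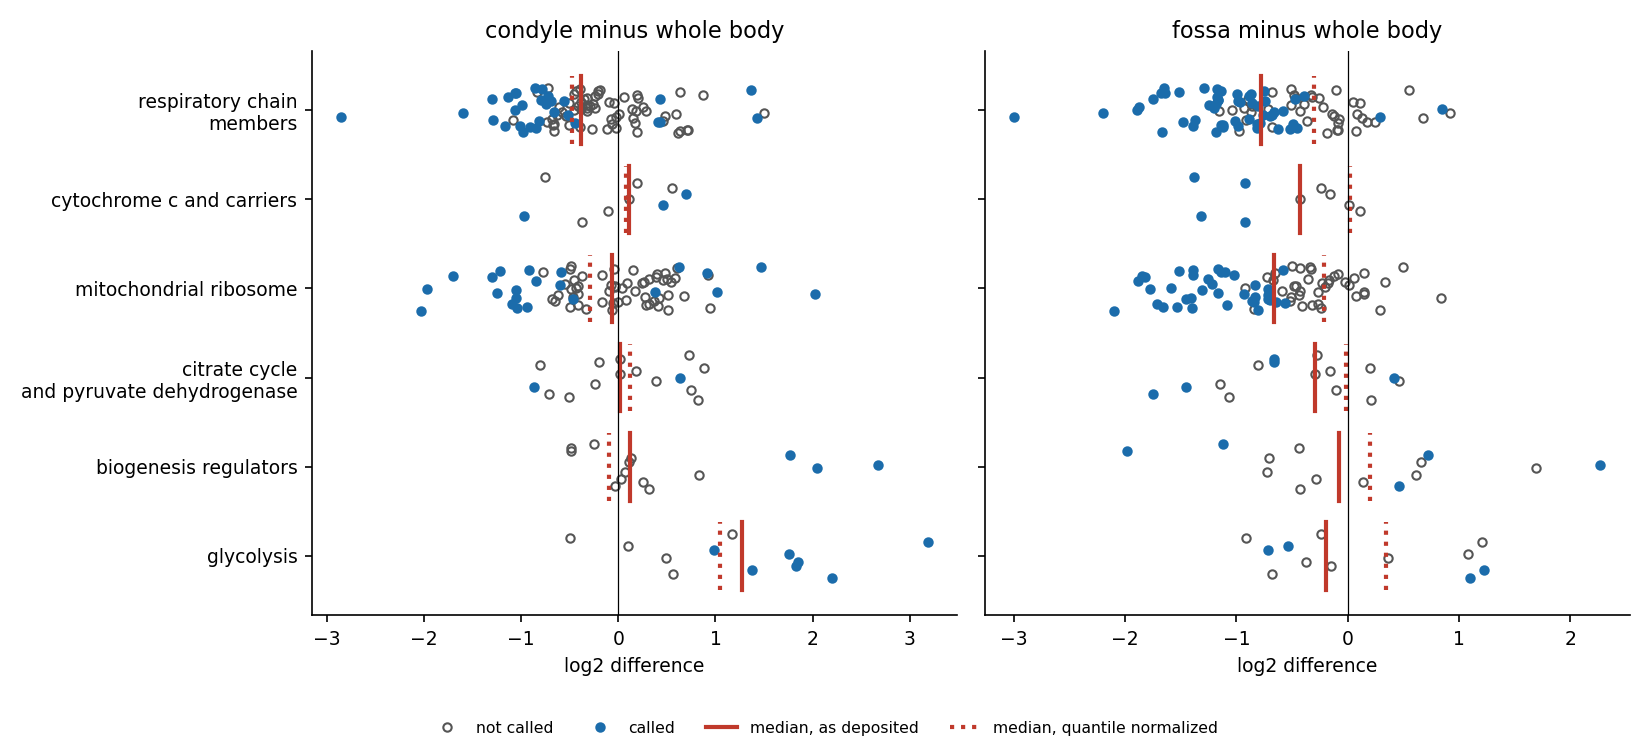
Log2 differences against whole body of condyle (left) and fossa (right) for the respiratory chain members and 5 lists of related genes, as deposited; filled points were called and red lines are medians (solid, as deposited; dotted, after quantile normalization). In condyle the median of the chain members is -0.38 and that of the 12 glycolysis genes is 1.27, as deposited. In fossa they are -0.78 and -0.20.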

How the data were processed

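RNA was hybridised as biotinylated cRNA to an Affymetrix mouse array, per the labels' protocols. The authors deposited intensities, linear by their range (3.25 to 67158.9). limma is listed in the submitters' processing notes, and its role, the background correction, normalization and summary of probes are not given in the sources used here. The tests used log2 values with a floor of 1. Each gene was read from its brightest probe set (mean of the 9 arrays), and 10 member probe sets with several symbols were left out. An array's background limit was the highest of 27 Bacillus control probe sets. With 1 or 0 arrays above it in the dimmer group, folds are "at least", set against the limit or the value, whichever is higher; with 2 above it, the fold is also a bound. limma 3.58.1 in R 4.3.3 (lmFit, eBayes) fitted 3 groups in 1 model with 6 residual degrees of freedom, Benjamini-Hochberg adjusted; the number of arrays limits the precision. It was tested on simulated data.

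Groups came from the labels. Genes with values were the 3 largest differences per complex and comparison, the core subunits, the tissue isoform pairs and up to 3 genes of other lists; Ndufb11, Ndufs8, Ndufv2, Cox6c, Sdhaf4, Atp5k, the other assembly factors, Ndufb8, Ndufv3 and, of the other lists, Slc25a3 and Ldha were added after their values were seen. The members and lists were chosen with earlier results of these data known. Alternatives were quantile normalization, centring on the median or 75th percentile, a common floor, no genes at background, all probe sets or their mean, 2 groups per fit, each array left out, a replicate block, and, added after seeing the data, no probe sets ending in _s_at or _x_at, which can match several transcripts.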

Additional observations from a re-analysis of the deposited data

How the results depend on the processing

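More members were lower than higher against whole body under every alternative run, and the counts moved with the scaling. In fossa this also held for all genes, with 15.6% lower and 3.99% higher as deposited, and 8.98% and 8.09% after quantile normalization. In condyle it did not, with 3.84% lower and 9.34% higher, and 4.45% and 4.52%. Shares of all genes under the other alternatives are not given here, so the counts below describe the members alone. The 26 lower in condyle were 55 when arrays were centred on the 75th percentile, a scaling under which the median of all genes was -0.43 in condyle and 0.16 in fossa, and 16 to 30 without single arrays. The 52 lower in fossa were 24 after quantile normalization, 30 with the 75th percentile, 92 of 185 with all probe sets, and 40 to 52 without single arrays. The 5 higher in condyle were 2 after quantile normalization, with the 75th percentile and without genes at background, 3 with the replicate block, and 2 to 7 without single arrays. The 2 higher in fossa were 5 with median centring and with all probe sets, 0 with the common floor, 1 without genes at background, with the mean of probe sets, with 2 groups per fit, with the block and without _s_at and _x_at probe sets, and 1 to 2 without single arrays. The 19 higher in condyle than in fossa were 1 after quantile normalization and with the 75th percentile, 11 with the common floor, 36 with all probe sets, and 9 to 19 without single arrays. The 2 lower there were 4 after quantile normalization, 14 with the 75th percentile, 0 with the common floor, 5 with all probe sets, 1 without genes at background, with the mean, with 2 groups per fit, with the block and without _s_at and _x_at probe sets, and 1 to 2 without single arrays. The F test's 56 were 30 after quantile normalization, 97 of 185 with all probe sets, and 41 to 55 without single arrays.

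Reversed differences were Atp5c1 in condyle (0.84) and Uqcrq in fossa (0.0415) without _s_at and _x_at probe sets, Ndufs3 in fossa (0.0118 with quantile normalization), and, for condyle minus fossa, Sdhb (-0.0378 with quantile normalization, -0.0805 with the 75th percentile), Cox4i2 (-0.24 with the 75th percentile), Cox6a1 (-0.43 with the 75th percentile), and, with quantile normalization and the 75th percentile in that order, Cox7a2 (-0.39 and -0.58), Ndufb8 (-0.36 and -0.49) and Ndufv3 (-0.44 and -0.51). That list covers only the genes given with values in each comparison. Other members changed sign between scalings too. For condyle minus fossa, Ndufa5 (down to -0.67), Ndufa13 (-0.54) and Ndufb11 (-0.41) were among them, each called lower under 1 scaling. With the common floor, Cox4i2 and Ndufaf3 had no difference left, since all their values lay at it. The cause was not tested. The labels do not say whether replicate numbers pair the samples. Correlations of same-numbered deviations were -0.33 to 0.14, which cannot settle this, since each deviation is from a mean of 3 arrays. With the replicate block 23 members were lower in condyle and 50 in fossa than in whole body, and 16 higher in condyle than in fossa. Signals near the background limit (Cox8b, Cox6a2 and Cox7a1 in the joint) limit what their folds can show.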
